A study of Mus musculus with 12 samples.

Results

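Integrins and classical cadherins are main receptors by which cells hold on to the matrix and to each other. Among 55487 genes counted, 49 protein-coding mouse genes of the integrin and cadherin families were examined. They were chosen by name alone, as the genes whose GENCODE M21 symbol is Itga or Itgb with a number or subunit letter, or Cdh with a number. The set holds 18 integrin alpha genes, 8 integrin beta genes and 23 cadherin genes. Beside classical cadherins it includes the atypical Cdh13, Cdh16, Cdh17, Cdh23 and Cdh26. RNA sequencing was done on 12 libraries in 4 groups of 3. Hepa1, a mouse hepatoma line with the genotype label wild type, and primary mouse embryonic fibroblasts (MEFs) that are Bach1-/- were the recipient cells. Each was cultured for 4 days in DMEM conditioned for 48 h by immortalised MEFs, from control cultures or from ones labelled ferroptotic, in which Bach1 had been re-expressed. The medium held 10% fetal bovine serum, was replaced daily and, in all 4 groups, had vitamin E (0.4 mg/mL) and 2-ME (0.1 mM, the reducing agent 2-mercaptoethanol) added. Hepa1 is 1 cell line, and the labels do not say how many embryos gave the MEFs. Ferroptosis is cell death that depends on iron and lipid peroxidation, and the question here is how the medium of ferroptotic cells changed their RNA in 2 kinds of recipient cell.

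An integrin is a pair of 1 alpha and 1 beta chain, and the alpha chain largely sets the ligand: collagens, laminins, or proteins such as fibronectin and vitronectin that carry an Arg-Gly-Asp (RGD) motif. Inside the cell the beta chain is joined to actin by talin, kindlins and other adaptors. Classical cadherins bind like partners on neighbouring cells and are joined to actin by catenins; fibroblasts typically carry N-cadherin and cadherin-11, and epithelia E-cadherin.

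Libraries held 18.58 to 23.4 M reads assigned to genes, and 3 reads in a library, the floor used here, equal 0.122 to 0.177 normalised CPM (reads relative to the library's total, with TMM factors over all 12 libraries), for counting error only. The cells fitted their labels in part. Of 10 fibroblast genes, 10 had a read in every MEF library, with a sum of 31323 to 32799 CPM in control and 25567 to 26440 CPM in ferroptotic medium. In Hepa1 the sum was 338 to 379 CPM in control and 403 to 411 CPM in ferroptotic medium. Most of the MEF sum was Col1a2 and Col3a1, at 19426.5 and 7958 CPM in control medium. Dcn went the other way between the cell types. It was at 242.6 CPM in Hepa1 in control and 271.8 CPM in ferroptotic medium, and at 4.55 and 15.6 CPM in MEFs. Lum was at only 2.24 and 9.65 CPM in MEFs. Dcn and Lum were thus higher in MEFs in ferroptotic medium, where the sum was lower. Of 8 epithelial genes, 6 or 7 had a read in each Hepa1 library, with a sum of 2163 to 2293 CPM in control and 1927 to 1968 CPM in ferroptotic medium, and Epcam had 0 reads there. The 10 hepatocyte genes summed to 404 to 424 CPM in Hepa1 in control and 1333 to 1451 CPM in ferroptotic medium, with Ttr, Apoa1 and Serpina1a at 0. The 12 leukocyte genes summed to 4.58 to 5.54 CPM in Hepa1 in control and 6.48 to 7.76 CPM in ferroptotic medium, and to 2.66 to 2.96 and 5.54 to 7.67 CPM in MEFs. Among them Lyz2 rose in both cell types and Adgre1 rose from 2 to 118 reads in Hepa1, whereas Ptprc and Tyrobp were at 0 in all libraries. Csf1r went down in Hepa1, from 206 to 144 reads, and Coro1a from 41 to 28. Of 3 leukocyte genes tested in Hepa1, 2 rose and 1 fell. Whether such shifts in marker levels play a part in the changes below was not tested. In bulk RNA, fewer cells of a type and less RNA per cell cannot be told apart. Bach1 was read in the MEFs at 96.2 ± 5.69 CPM in control and 88.8 ± 3.49 CPM in ferroptotic medium (SD, n = 3), and counts over a whole gene do not check a deletion of some of its exons.

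The start regions of 6 integrin genes are shown: Itga11 and Itga8, which fell in MEFs, the neighbours Itga1 and Itga2, and Itgb1 and Itgb5, the most abundant beta genes, which moved in opposite directions in the 2 cell types. They were picked after their values were seen. The windows are taken from RefSeq (GRCm38.p6), 5′ to 3′ on the gene's strand, as the 250 bases before the annotated start, and 31 of the 49 genes had such a window. That of Itga11 is cut to 221 bases, as its last bases lie within the GENCODE gene. The motif counts over the 31 genes and over all windows used 250 bases. Itga11 lies at chr9:62677605-62677825 (plus strand), Itga8 at chr2:12301945-12302194 (minus) and Itga2 at chr13:114932101-114932350 (minus). Itga1 lies at chr13:115101965-115102214 (minus), Itgb1 at chr8:128685404-128685653 (plus) and Itgb5 at chr16:33829415-33829664 (plus). Capitals mark exact matches, on either strand, to a GC box (GGGCGG), a TEAD site (GGAATG), a SMAD site (CAGACA) or an E-box (CACCTG).
Itga11: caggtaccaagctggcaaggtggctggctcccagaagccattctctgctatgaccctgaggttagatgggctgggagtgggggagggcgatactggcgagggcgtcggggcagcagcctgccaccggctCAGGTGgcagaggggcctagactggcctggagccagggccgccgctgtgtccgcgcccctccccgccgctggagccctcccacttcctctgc
Itga8: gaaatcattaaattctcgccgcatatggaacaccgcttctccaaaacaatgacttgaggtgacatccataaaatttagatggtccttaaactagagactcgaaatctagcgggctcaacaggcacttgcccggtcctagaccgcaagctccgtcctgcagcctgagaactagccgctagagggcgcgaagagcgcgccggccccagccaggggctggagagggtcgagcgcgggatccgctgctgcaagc
Itga2: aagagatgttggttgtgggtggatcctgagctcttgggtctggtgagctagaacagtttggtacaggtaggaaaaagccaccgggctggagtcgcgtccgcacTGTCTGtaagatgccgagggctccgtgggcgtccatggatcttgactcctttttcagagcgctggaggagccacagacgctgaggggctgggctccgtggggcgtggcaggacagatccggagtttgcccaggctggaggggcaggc
Itga1: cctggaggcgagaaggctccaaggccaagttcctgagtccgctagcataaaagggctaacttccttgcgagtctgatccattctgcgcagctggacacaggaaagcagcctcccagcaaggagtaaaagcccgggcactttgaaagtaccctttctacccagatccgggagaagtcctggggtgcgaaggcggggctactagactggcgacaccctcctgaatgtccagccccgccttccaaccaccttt
Itgb1: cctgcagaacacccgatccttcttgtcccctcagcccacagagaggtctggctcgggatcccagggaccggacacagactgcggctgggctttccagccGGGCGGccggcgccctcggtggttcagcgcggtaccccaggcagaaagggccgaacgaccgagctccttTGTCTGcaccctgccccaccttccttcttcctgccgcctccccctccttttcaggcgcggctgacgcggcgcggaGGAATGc
Itgb5: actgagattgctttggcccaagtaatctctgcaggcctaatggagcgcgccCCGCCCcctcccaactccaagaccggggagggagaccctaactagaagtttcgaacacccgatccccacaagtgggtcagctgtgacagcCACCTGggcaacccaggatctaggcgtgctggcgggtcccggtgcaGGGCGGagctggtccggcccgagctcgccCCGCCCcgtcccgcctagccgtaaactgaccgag

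Itgb5 held 3 GC boxes and 1 E-box, and Itgb1 held 1 GC box, 1 TEAD site and 1 SMAD site. Itga11 held 1 E-box and Itga2 held 1 SMAD site, while the windows of Itga1 and Itga8 held none of these. Among the 31 genes of the families with a window, 11 held a GC box, against 32.7% of 32851 windows over all genes. The members are counted by gene, with the motif in any window of the gene, and the shares by window, so these are unlike measures. An E-box was in 7 of the 31 genes (17.2% of all windows), a SMAD site in 9 (17.1%) and a TEAD site in 5 (12.6%). The TATA box (TATAAA) was in 0 of them (12.4%), the AP-1 site (TGANTCA) in 1 (6.75%) and the CArG box in 1 (1.47%). These letters describe the windows and do not show that a factor binds there.

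Fibroblasts and hepatoma cells differed in the RNA of these receptor genes already in control medium. The counts at 1 CPM given next have no all-gene share beside them. A mean of at least 1 CPM was reached by 15 of the 49 genes in Hepa1 in control medium and by 27 in MEFs. In ferroptotic medium the counts were 16 and 29, and 31 genes reached it in some group (13 alpha, 5 beta and 13 cadherin genes). Of the rest, 4 genes had 0 reads in all libraries: Cdh5 (VE-cadherin of endothelium), Cdh7, Cdh9 and Itgad. The other leukocyte alpha genes Itgam, Itgax and Itgal had 1, 1 and 4 reads in all 12 libraries together, and Itgae had 30. Itgb2, Itgb6 and Itgb7 had 66, 64 and 50 reads, Cdh10 and Cdh19 had 34 and 18, and Cdh8, Cdh12, Cdh15 and Cdh22 had 1 to 3. Cdh1, which encodes E-cadherin, had 1 read in Hepa1 in control and 2 in ferroptotic medium, with 6 and 11 reads in MEFs, so it was nearly unread in the hepatoma cells too.

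**Figure D1:**
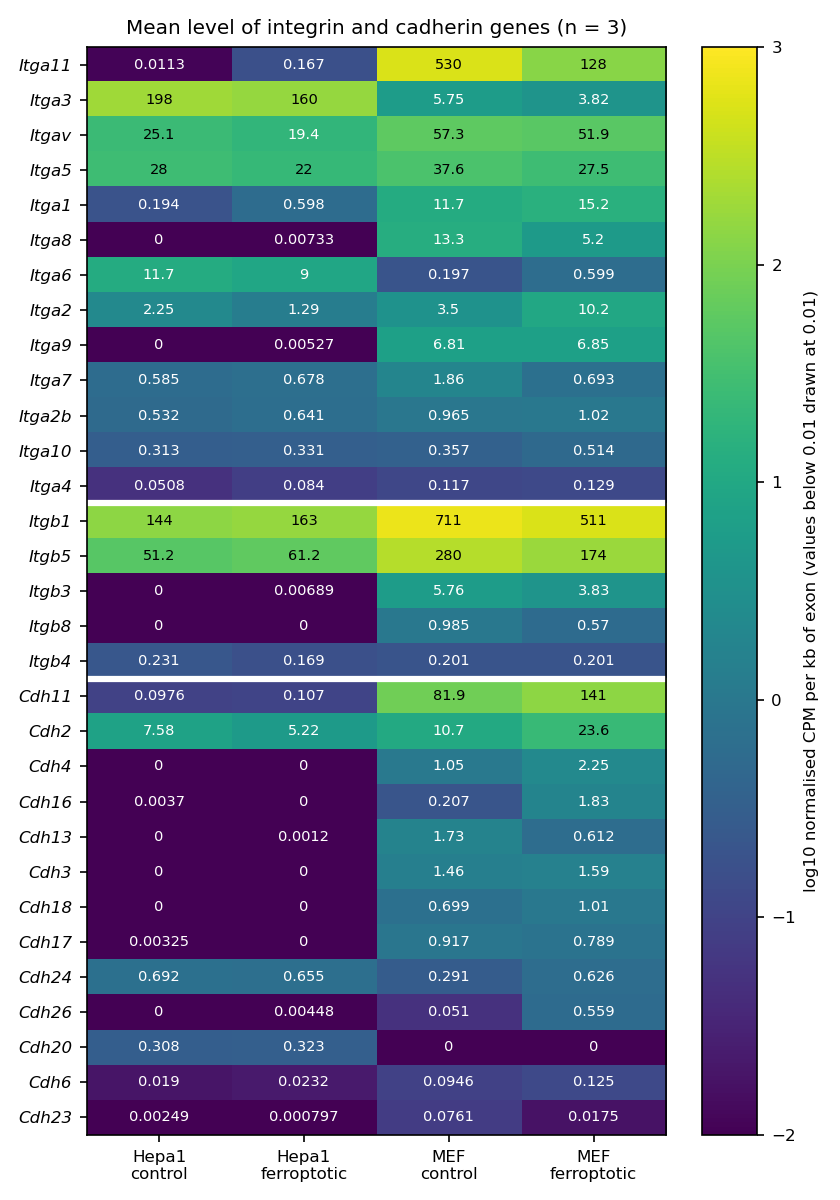
Mean normalised CPM per kb of annotated exon (colour on a log10 scale, value printed in each cell, n = 3) for the 31 genes with at least 1 CPM in a group, in rows by family. Itga3 and Itga6 are higher in the Hepa1 columns, whereas Itga11, Itga8, Itga9, Itgb3 and most cadherins are near 0 there and read in MEFs.

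Per kb of exon, the scale on which genes can be compared, Itga3, the alpha chain of a laminin receptor, was at 198 ± 4.09 in Hepa1 in control medium (SD, n = 3, normalised CPM per kb). Itgb1, the beta chain shared by most matrix-binding integrins, followed at 144 ± 5.88, then Itgb5 at 51.2 ± 2.47, Itga5 at 28.0 ± 0.728 and Itgav at 25.1 ± 0.837. Itga5 and Itgav are the RGD-binding chains of the fibronectin and vitronectin receptors. In ferroptotic medium Itgb1 (163 ± 3.45) and Itga3 (160 ± 3.07) lay close together, and the order of the others was kept. With the longest basic transcript as the length, Itga3 (187.8) stood above Itgb1 (174.5) in ferroptotic medium, and Itgav above Itga5 in both media.

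In MEFs in control medium Itgb1 led with 711 ± 4.76 CPM per kb, followed by Itga11 at 530 ± 9.15, Itgb5 at 280 ± 2.28, Cdh11 at 81.9 ± 1.92 and Itgav at 57.3 ± 1.47. Itga11 encodes a receptor chain for fibrillar collagens that is typical of fibroblasts, and Cdh11 encodes the cadherin of mesenchymal cells. In ferroptotic medium Itga11 stood at 128 ± 2.32, below Cdh11 at 141 ± 4.74 and Itgb5 at 174 ± 3.41. Itgb1 remained the highest at 511 ± 11.1, and Itgav stood at 51.9 ± 0.818. With the longest basic transcript as the length, Cdh11 (222.6) stood above Itgb5 (188.0) in ferroptotic medium, and the order in control medium was kept.

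Between the cell types, 31 of the 33 genes tested differed in control medium (edgeR, adjusted p under 0.05): 6 were higher in Hepa1 and 25 lower. Of all 15627 genes tested, 86.6% were called, 40.7% higher and 46.0% lower. In ferroptotic medium 4 were higher and 25 lower, against 88.2% of all genes (41.5% higher, 46.7% lower). A log2 difference of at least 1 was reached by 6 higher and 21 lower members in control medium (19.0% and 28.3% of all genes) and by 4 and 21 in ferroptotic medium (18.8% and 28.0%). The filter over 12 libraries admitted genes read in 1 cell type alone, among the members and among all genes. Cdh4, Itgb8, Cdh18 and Cdh3 had 0 reads in Hepa1 and Cdh20 had 0 in MEFs, so the direction of their calls was fixed beforehand. Within Hepa1 only 19 members were read enough to be tested, and 30 within MEFs. The median log2 difference of the members (Hepa1 minus MEF) was -2.30 in control and -2.41 in ferroptotic medium, where that of all genes was -0.08 in both. These medians include members admitted through MEFs and almost unread in Hepa1, whose log2 values depend on how the fit treats counts near 0. They are therefore no measure of a shift of the families as a whole. Cell type, genotype and culture history differ together here and cannot be told apart.

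Itga6, the other laminin-binding chain of epithelial cells, was at 105.8 ± 3.93 CPM in Hepa1 and 1.78 ± 0.398 CPM in MEFs in control medium, a log2 difference of 5.89 ± 0.0822 (SE). Itga3 differed by 5.10 ± 0.0460. Cdh20, a type II cadherin, had 87 reads in Hepa1 and 0 in MEFs, which makes it at least 6.98-fold higher against the floor of 3 reads per library. In the other direction Itga8, Itga9, Itgb3 and Cdh13 had 0 reads in Hepa1 in control medium and were at least 749-fold, 400-fold, 260-fold and 148-fold higher in MEFs. Itga11 had 4 reads in Hepa1 against 142164 in MEFs, a ratio of 47843 (95% counting interval 18685 to 175594).

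The Hepa1 library of replicate 3 in ferroptotic medium stood apart in these MEF-type genes. It held 57 reads of Itga11, where the other libraries of its group held 1 and 5 and the control libraries 0, 0 and 4. It also held 4 reads of Itga8, 3 of Itga9, 2 of Itgb3 and 37 of Cdh11 (12 and 20 in the others). For Itga11, Itga8 and Itga9 this amounts to 0.0849%, 0.165% and 0.232% of the level in MEFs in control medium. What brought these reads into the library was not tested, and results that rest on it are given with and without it. A MEF library, replicate 3 in ferroptotic medium, stood apart in the other direction, with 69 reads of the 8 epithelial genes against 5 and 7 in its group. Its levels of Itga3 (22.35 CPM) and Itga6 (5.335 CPM), the receptor genes higher in Hepa1, lay between those of the other 2 libraries of its group.

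In ferroptotic medium receptor genes were called in both cell types, though in Hepa1 at about the share of all genes. The smallest adjusted p was for Itga11, Cdh2 and Itga8 in MEFs and for Itga1 in Hepa1. In MEFs 30 of the 49 genes were tested, and 11 rose and 12 fell (edgeR, adjusted p under 0.05), where 55.0% of all 14441 genes were called (27.8% higher, 27.2% lower). A log2 change of at least 1 was reached by 7 that rose and 5 that fell, against 4.38% and 2.38% of all genes. In Hepa1 19 were tested, and 4 rose and 7 fell. These 11 of 19 are close to the share of all 13169 genes, of which 58.1% were called (29.3% higher, 28.8% lower). Without ferroptotic replicate 3 the counts in Hepa1 were 3 and 8, with Itga4 lost and Itgb4 gained. With all libraries 1 rose and 1 fell by a log2 of at least 1, against 4.50% and 2.07% of all genes. The median absolute log2 change of the members was 0.636 in MEFs and 0.344 in Hepa1, beside 0.200 and 0.219 over all genes tested. Signed medians were 0.05 and 0.07, beside 0.00 in both over all genes. The other 19 genes in MEFs and 30 in Hepa1 were too little read to be tested. The labels do not say that replicates were separate cultures, so the p-values measure the spread between these libraries, which may be technical.

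**Figure D2:**
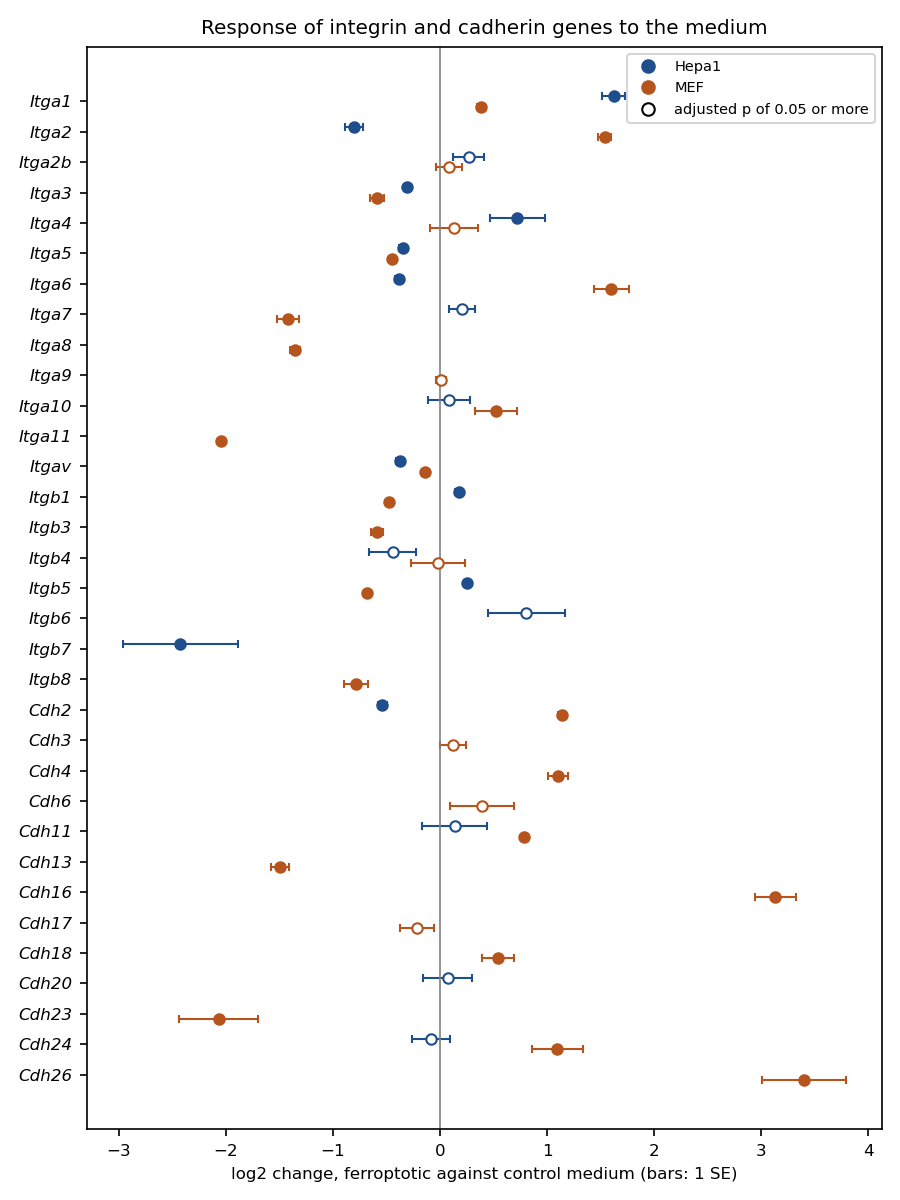
Log2 change in ferroptotic against control medium for each gene tested in at least 1 cell type (points, edgeR; bars, 1 SE), with Hepa1 in blue and MEFs in orange and open points for an adjusted p of 0.05 or more. MEF points reach from -2.07 (Cdh23) to 3.40 (Cdh26), and Itga2, Itga6 and Cdh2 lie on opposite sides of 0 in the 2 cell types.

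Among the collagen-binding alpha genes of MEFs, Itga11 fell while Itga1 and Itga2 rose. Itga11 was at 2679, 2772 and 2713 CPM in control medium and at 669.9, 646.5 and 654.2 CPM in ferroptotic medium. The groups lay far apart, with a log2 change of -2.05 ± 0.0284 (SE, adjusted p = 2.90e-48). Itga2, whose chain binds collagens and laminins, was at 27.6, 25.1 and 22.3 CPM in control and 74.1, 79.9 and 63.8 CPM in ferroptotic medium. All 3 ferroptotic libraries were above all controls (log2 change 1.54 ± 0.0619, adjusted p = 8.10e-28). Itga1, a receptor chain for collagen IV and other collagens, was at 229.8, 221.0 and 201.9 CPM and then at 276.9, 293.6 and 278.2 CPM, a smaller rise of 0.38 ± 0.0328 (adjusted p = 1.06e-14). Itga10 had a log2 change of 0.52 ± 0.194 (adjusted p = 0.0192), a call that was lost with DESeq2 (adjusted p = 0.0963) and without control replicate 1 or 3 or ferroptotic replicate 3 (adjusted p = 0.0514, 0.113 and 0.0645).

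In Hepa1 Itga1 rose and Itga2 fell. Itga1 went from 4.02, 3.79 and 3.01 CPM to 11.5, 10.5 and 11.3 CPM, so that every ferroptotic library was above every control (log2 change 1.62 ± 0.108, adjusted p = 2.97e-13). It stayed far below the level of MEFs. Itga2 fell from 16.1, 17.5 and 14.5 CPM to 8.98, 8.50 and 10.1 CPM (log2 change -0.80 ± 0.0842, adjusted p = 3.68e-09). Itga1 and Itga2 are neighbours on chromosome 13 (GRCm38, 114953096 to 115101964 and 114833081 to 114932100, both on the minus strand), 21.0 kb apart with 0 protein-coding genes between them. They rose together in MEFs and moved in opposite directions in Hepa1.

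Of the laminin-binding alpha genes, Itga3 fell in both cell types, while in MEFs Itga6 rose and Itga7 fell. Itga3 was at 1153, 1106 and 1126 CPM in Hepa1 in control medium and 899.4, 906.3 and 932.6 CPM in ferroptotic medium, with no overlap (log2 change -0.31 ± 0.030, adjusted p = 1.04e-09). In MEFs its level was 32.8 ± 1.1 CPM and fell to 21.8 ± 1.66 CPM (-0.59 ± 0.0611, adjusted p = 5.80e-12). Itga6 rose in MEFs from 1.33, 2.11 and 1.89 CPM to 5.31, 5.58 and 5.34 CPM (1.60 ± 0.168, adjusted p = 6.69e-12). In Hepa1, where its level is higher, it fell from 105.8 ± 3.93 to 81.2 ± 1.60 CPM (-0.38 ± 0.0391, adjusted p = 2.38e-09). Itga7, the laminin receptor chain best known from muscle, fell in MEFs from 14.1, 16.3 and 14.7 CPM to 5.86, 4.87 and 6.09 CPM (-1.42 ± 0.100, adjusted p = 9.78e-18). Its log2 change in Hepa1 was 0.21 ± 0.121 (adjusted p = 0.139), with groups that overlap.

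Among the RGD-binding chains Itga8 moved most. It is the alpha chain of a receptor for nephronectin and other RGD proteins. Itga8 was at 98.7, 99.3 and 96.35 CPM in MEFs in control medium and at 37.7, 40.02 and 37.25 CPM in ferroptotic medium, which do not overlap (log2 change -1.35 ± 0.0424, adjusted p = 1.33e-32). Itga5 fell in both cell types, from 185.5 ± 8.30 to 135.7 ± 2.29 CPM in MEFs (-0.45 ± 0.0323, adjusted p = 2.12e-17) and, in Hepa1, from 138.6, 134.2 and 141.3 CPM to 106.5, 106.6 and 113.0 CPM (-0.34 ± 0.0367, adjusted p = 4.98e-09). Every ferroptotic library of Hepa1 was below every control for Itga5.

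Itgav also fell in both. In Hepa1 it went from 264.7, 280.1 and 264.4 CPM to 209.6, 199.3 and 216.8 CPM (-0.37 ± 0.0351, adjusted p = 4.84e-10), and in MEFs from 632.4, 614.1 and 600.9 CPM to 557.7, 565.8 and 548.3 CPM (-0.14 ± 0.0283, adjusted p = 2.94e-05). The groups did not overlap in either, though the change in MEFs was small. Itga2b, the alpha chain of the platelet fibrinogen receptor, was at 2.90 to 5.57 CPM in the 4 groups and was not called in either cell type. The 6 platelet genes summed to 5.84 to 7.60 CPM in control and 2.26 to 2.98 CPM in ferroptotic medium in MEFs. Most of this sum was Ppbp, at 6.36 and 1.65 CPM, and the list did not fall as a whole. Pf4 went from 3 to 25 reads, Gp1ba had 22 and 25, Gp1bb 7 and 7, Gp9 0 and 2, and Gp6 0 in both media.

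Itga4 and Itga9 encode chains whose ligands include VCAM-1. Itga9 was at 52.4 ± 1.83 and 52.7 ± 1.85 CPM in MEFs in control and ferroptotic medium, a log2 change of 0.01 ± 0.0455 (adjusted p = 0.865). Itga4 was called in Hepa1 (0.72 ± 0.257, adjusted p = 0.0174), but not with DESeq2 (adjusted p = 0.0938), nor without control replicate 1 or 3 or ferroptotic replicate 3 (adjusted p = 0.0647, 0.0564 and 0.124).

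Of the beta genes, Itgb1 and Itgb5 rose slightly in Hepa1 and fell in MEFs. Itgb1 was at 579.6, 616.5 and 571.5 CPM in Hepa1 in control medium and at 650.2, 669.7 and 677.6 CPM in ferroptotic medium, with no overlap (log2 change 0.18 ± 0.0328, adjusted p = 3.66e-05). In MEFs Itgb1 went from 2922, 2891 and 2886 CPM to 2051, 2137 and 2069 CPM (-0.47 ± 0.0271, adjusted p = 2.45e-21). The groups were well separated. Itgb5, a partner of the alpha V chain in vitronectin receptors, went from 182.5, 173.1 and 190.6 CPM to 212.8, 215.9 and 223.9 CPM in Hepa1 (0.26 ± 0.0364, adjusted p = 6.87e-07). Itgb5 in MEFs went from 994.5, 984.7 and 1001 CPM to 620.8, 603.4 and 626.7 CPM (-0.68 ± 0.0277, adjusted p = 1.06e-27). Every Hepa1 ferroptotic library was above, and every MEF one below, all controls of its cell type.

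The lesser beta genes of MEFs fell too: Itgb3, a further partner of alpha V, from 34.0 ± 0.806 to 22.6 ± 1.07 CPM (-0.59 ± 0.0586, adjusted p = 1.78e-12) and Itgb8, which pairs with alpha V in receptors that activate TGF-beta, from 10.9 ± 0.285 to 6.30 ± 1.27 CPM (-0.78 ± 0.11, adjusted p = 2.06e-08). Itgb4 was at 1.41 ± 0.406 and 1.41 ± 0.358 CPM (-0.02 ± 0.255, adjusted p = 0.965). In Hepa1 Itgb7, of lymphocyte receptors, had 11, 12 and 10 reads in control and 2, 0 and 4 in ferroptotic medium, a ratio of 0.177 (95% counting interval 0.0607 to 0.428, adjusted p = 0.000342). Without replicate 3, which held 4 of the 6 ferroptotic reads, its log2 change was -3.31, from -2.42 ± 0.538. Its level there was under 1 CPM in every library, and Cd3e had 0 reads.

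**Figure D3:**
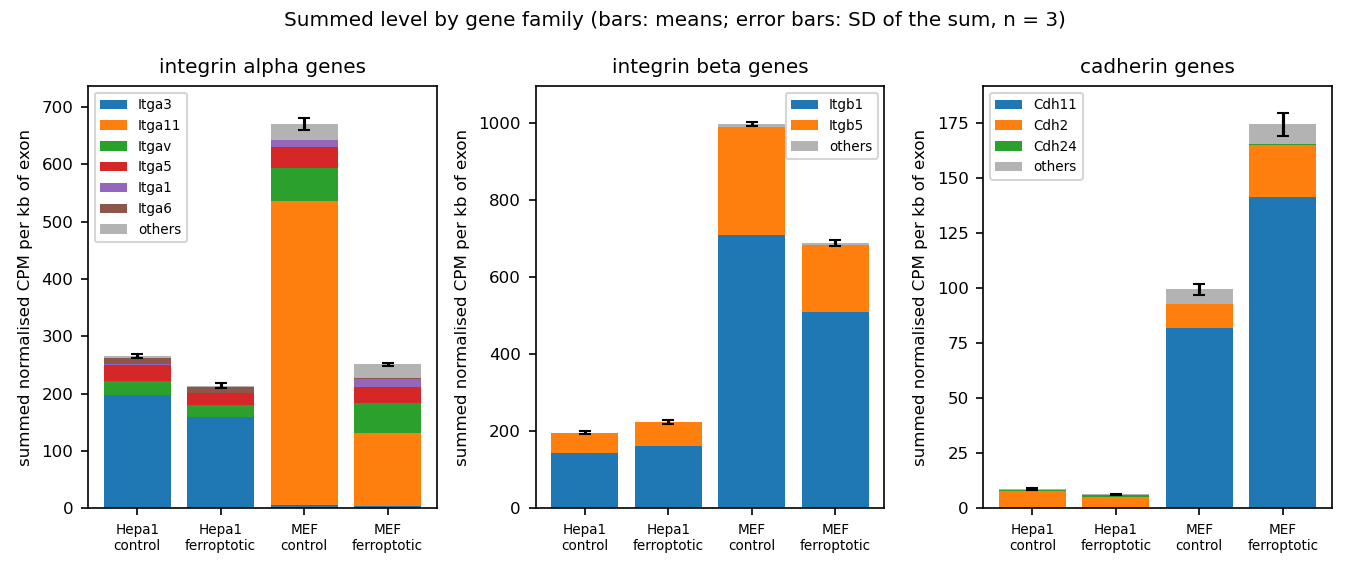
Summed normalised CPM per kb of exon over the alpha, beta and cadherin genes in each group (stacked bars, means; error bars, SD of the sum, n = 3). Itga11 fills most of the alpha bar in MEFs in control medium (79.2%) and less in ferroptotic medium (50.9%), and the cadherin bar of MEFs is higher in ferroptotic medium.

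Summed over its members and per kb of exon, the alpha family in MEFs was at 670 ± 10.6 CPM per kb in control and 252 ± 2.47 in ferroptotic medium. The beta family was at 997 ± 5.35 and 690 ± 8.43. In Hepa1 the alpha sum was 266 ± 3.47 and 214 ± 4.90, and the beta sum 196 ± 3.59 and 225 ± 5.0. These sums carry no test. Itga11 held 79.2% ± 0.250 of the alpha level of MEFs in control medium and 50.9% ± 0.759 in ferroptotic medium, or 74.2% and 43.8% with the longest basic transcript as the length. The share of Itgav went from 8.56% to 20.6%, although its own level fell, and those of Itga5 and Itga1 from 5.61% to 10.9% and from 1.75% to 6.05%. By the basic length Itgav held 11.8% and 26.2%, Itga5 5.73% and 10.3%, and Itga1 2.69% and 8.55%. In Hepa1 Itga3 held 74.2% and 74.7%, and Itgb1 held between 71.3% and 74.1% of the beta level in all 4 groups.

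Of 12 cadherin genes tested in MEFs, 7 rose, 2 fell and 3 were not called, beside 27.8% higher and 27.2% lower over all genes. Cdh11 was at 748.0, 726.0 and 714.2 CPM in control and at 1279, 1284 and 1209 CPM in ferroptotic medium. The groups did not overlap (log2 change 0.79 ± 0.0289, adjusted p = 1.29e-29). Cdh2, which encodes N-cadherin, went from 88.5, 85.4 and 86.1 CPM to 193.5, 187.5 and 189.3 CPM (1.14 ± 0.0326, adjusted p = 2.65e-34). Every ferroptotic library held more than every control. Cdh4, the R-cadherin of nerve and muscle, rose from 8.53, 7.87 and 6.44 CPM to 16.2, 15.9 and 16.9 CPM (1.1 ± 0.0924, adjusted p = 4.55e-15).

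Less abundant cadherin genes of MEFs changed too. Cdh16, which encodes kidney-specific cadherin and lies at 104601911 to 104624396 on chromosome 8, was at 0.638, 0.887 and 0.827 CPM in control and 7.50, 7.04 and 6.29 CPM in ferroptotic medium (log2 change 3.13 ± 0.190, adjusted p = 2.00e-20). The lowest ferroptotic library was far above the highest control. Cdh26 had 4, 2 and 2 reads in control and 36, 29 and 30 reads in ferroptotic medium, a ratio of 10.96 (95% counting interval 5.34 to 26.1), with a log2 change of 3.40 ± 0.391 (adjusted p = 1.16e-10). Cdh24, a type II cadherin, went from 0.986, 0.997 and 1.06 CPM to 2.58, 2.11 and 1.86 CPM (1.1 ± 0.237, adjusted p = 8.64e-05), and Cdh18 from 3.18 ± 0.444 to 4.62 ± 0.171 CPM (0.54 ± 0.150, adjusted p = 0.00187).

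The fallers were Cdh13 and Cdh23. Cdh13 encodes T-cadherin, a cadherin held by a lipid anchor, and went from 20.12, 19.95 and 18.24 CPM to 6.57, 6.66 and 7.40 CPM (-1.49 ± 0.0879, adjusted p = 6.74e-21). Cdh23, the tip-link cadherin of hair cells, had 25, 17 and 25 reads in control and 3, 5 and 9 reads in ferroptotic medium (-2.07 ± 0.365, adjusted p = 3.06e-06). Both separated the groups in full. Cdh3, Cdh6 and Cdh17 were at 0.854 to 6.95 CPM and were not called (adjusted p = 0.422, 0.269 and 0.269).

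In Hepa1 only Cdh2 passed the test among the 4 cadherins tested. It fell from 61.7, 59.9 and 61.7 CPM to 42.7, 41.1 and 42.4 CPM, with no overlap (log2 change -0.54 ± 0.0447, adjusted p = 3.58e-11). Cdh11, Cdh20 and Cdh24 had changes of 0.14 ± 0.303, 0.07 ± 0.231 and -0.08 ± 0.178 (adjusted p = 0.720, 0.808 and 0.728). Without ferroptotic replicate 3, Cdh11 was at -0.35 and Cdh20 at -0.057, neither called (adjusted p = 0.398 and 0.877). The cadherin sum was 8.71 ± 0.300 and 6.35 ± 0.212 CPM per kb in Hepa1, against 99.3 ± 2.50 and 174 ± 5.19 in MEFs.

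**Figure D4:**
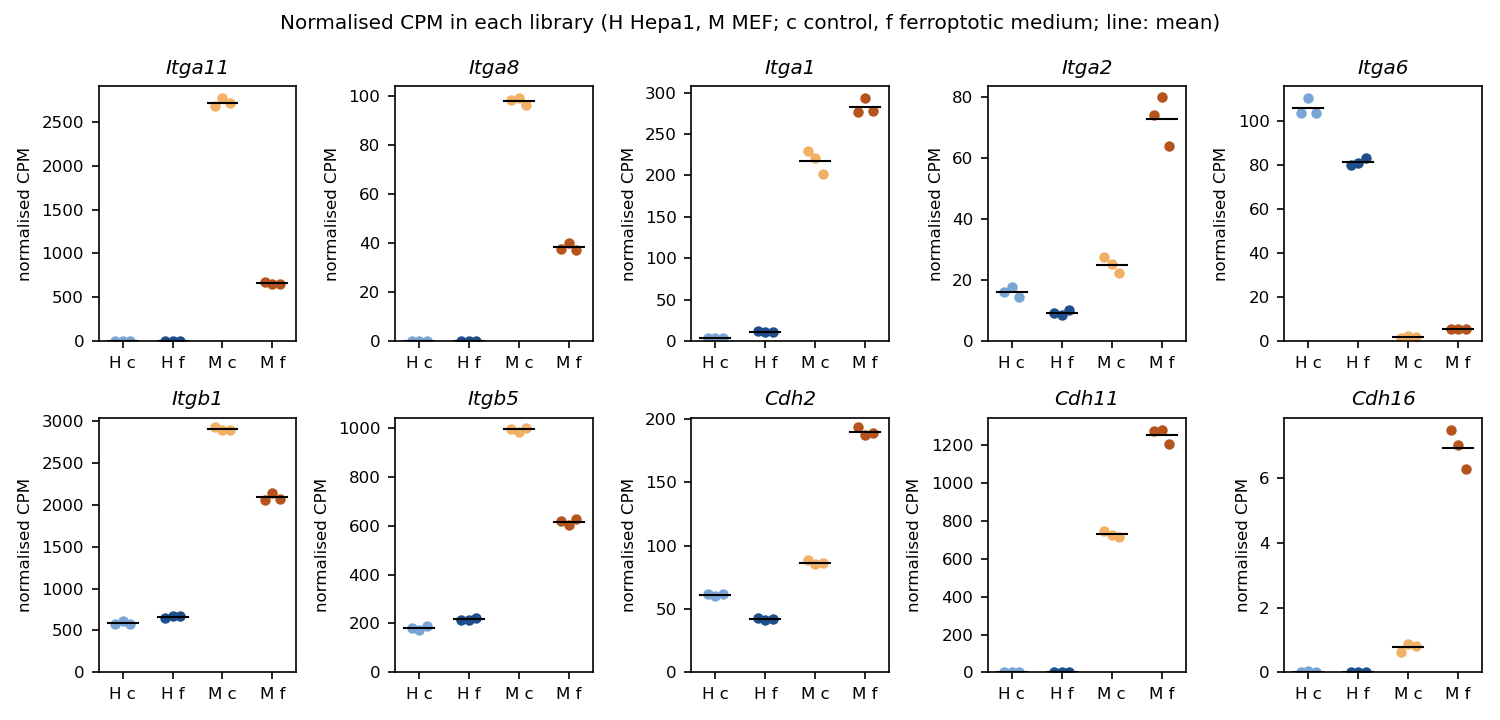
Normalised CPM of 10 genes in each of the 12 libraries (points; lines, group means; axes start at 0), with Hepa1 (H) and MEFs (M) in control (c) and ferroptotic (f) medium. Itga11 and Itga8 drop in MEFs, Itga2, Cdh2, Cdh11 and Cdh16 go up, and Itgb1 and Itgb5 move down in MEFs and slightly up in Hepa1.

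The responses of the 2 cell types were compared directly with an interaction term over all 12 libraries, in which a positive value means a higher log2 change in Hepa1 than in MEFs. Of 33 members tested, 8 were called higher and 5 lower, beside 44.2% of all 15627 genes (23.3% higher, 20.9% lower). A difference of at least 1 was reached by 5 higher and 4 lower (4.69% and 3.18% of all genes). Without Hepa1 ferroptotic replicate 3 these were 3 and 5, with Itga8 and Itgb3 lost and Cdh11 gained. Cdh4, Itgb8, Cdh18 and Cdh3 had 0 reads in Hepa1 and Cdh20 had 0 in MEFs, so for these 5 of the 33 the difference has no measured value. In Hepa1, Itga8, Itga9, Itgb3, Cdh13 and Cdh26 had 0 reads in control medium, and Cdh16 and Cdh17 had 0 in ferroptotic medium. The size of their difference is not measured either. The largest well-read differences were in Itga2 (-2.34 ± 0.118, adjusted p = 3.83e-21), Itga6 (-1.98 ± 0.157, adjusted p = 1.46e-14) and Cdh2 (-1.67 ± 0.0555, adjusted p = 9.43e-28), which fell in Hepa1 and rose in MEFs. Itgb1 (0.65 ± 0.0522) and Itgb5 (0.94 ± 0.0508) differed the other way. Itga1 differed by 1.24 ± 0.116, having risen in both. Itga5 had 0.11 ± 0.0531 (adjusted p = 0.106), so a difference between its falls was not shown.

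Of 16 members tested in both cell types, 9 were called in both. They moved in opposite directions in 5 (55.6%) and in the same direction in 4. Over all genes 4275 of 12042 were called in both, of which 1839 (43.0%) moved in opposite directions. Itga11 and Itga8 differed by 5.86 ± 0.798 and 4.72 ± 1.53, but their Hepa1 counts rest on replicate 3. Neither was read enough to be tested within Hepa1, and Itga8 had 0 Hepa1 reads in control medium. Without replicate 3 Itga11 was at 3.13 (adjusted p = 0.00560), on 1 and 5 Hepa1 reads in ferroptotic and 0, 0 and 4 in control medium. Itga8 was then at 1.36 and not called, with 0 Hepa1 reads left, and the calls over the members were 6 higher and 6 lower. Itgb3 (3.58 ± 1.51, adjusted p = 0.04996) was no longer called under most other settings. Cdh11 was not called (-0.65 ± 0.293, adjusted p = 0.0704), but was called without that library (-1.14, adjusted p = 0.00117).

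The genes around the receptors changed as well. Of 31 integrin adaptors and effectors, 27 were tested in MEFs, of which 5 rose and 17 fell, with a median log2 change of -0.14. Over all genes tested in MEFs 27.8% were higher and 27.2% lower. In Hepa1 22 were tested, of which 5 rose and 11 fell (median -0.14), beside 29.3% higher and 28.8% lower over all genes. These shares and an all-gene median of 0.00 in both cell types are the background for the lists below too. Tns3, a tensin that joins integrin tails to actin, rose in MEFs (0.55 ± 0.0280) and fell in Hepa1 (-0.98 ± 0.0418), while Tns1, a related tensin, rose in Hepa1 (1.13 ± 0.0533). Actn1, an alpha-actinin that crosslinks actin, fell in both (-0.34 ± 0.0276 in MEFs and -0.58 ± 0.0355 in Hepa1). Vcl, which encodes vinculin, fell in Hepa1 (-0.73 ± 0.0457), and Apbb1ip and Lims2 fell in MEFs (-0.62 ± 0.0600 and -1.24 ± 0.125).

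Of 30 integrin ligands, 16 rose and 10 fell among 27 tested in MEFs (median 0.30), beside 27.8% and 27.2% of all genes. In Hepa1 11 rose and 8 fell among 21 (median 0.14), beside 29.3% and 28.8%. Postn, which encodes periostin, Col4a1, a collagen IV chain, and Npnt, which encodes nephronectin, rose in MEFs by 1.58 ± 0.0307, 1.34 ± 0.0279 and 1.60 ± 0.0442. Spp1, which encodes osteopontin, changed by -1.51 ± 0.0307. In Hepa1 the tenascin gene Tnc fell (-1.33 ± 0.0553), as did the laminin chain gene Lama5 (-0.49 ± 0.0338), and Lamb2, of another laminin chain, rose (0.72 ± 0.0376).

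Among the 13 catenins and other cadherin partners, 3 rose and 4 fell of 11 tested in MEFs, and 5 rose and 3 fell of 10 tested in Hepa1. Medians were 0.01 and 0.06. Nectin2, a cell-cell adhesion receptor, fell in both (-1.32 ± 0.0446 and -0.61 ± 0.0375). In MEFs Ctnnd1 (p120-catenin) fell by 0.36 on the log2 scale, and Ctnna1 and Pkp4 each rose by 0.30. Afdn fell in Hepa1 (-0.60 ± 0.0340), and Jup and Nectin3 rose (0.28 ± 0.0337 and 0.29 ± 0.0391). Of 13 desmosome genes, 6 were tested in Hepa1, of which 4 fell and 1 rose (median -0.23). Dsp, which encodes desmoplakin, fell by 0.91 and Dsg2 by 0.44 on the log2 scale.

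Among 6 transcription factors that repress cadherin genes, 4 rose and 1 fell in MEFs (median 0.21). Zeb2 rose (0.70 ± 0.0489), as did Snai2 and Twist1 (0.45 ± 0.0358 and 0.30 ± 0.0314), and Zeb1 fell (-0.49 ± 0.0321). In Hepa1 3 were tested: Zeb2 fell (-1.61 ± 0.0715, adjusted p = 3.64e-17), Snai1 fell (-0.19 ± 0.0787, adjusted p = 0.0388) and Zeb1 rose (0.11 ± 0.0405, adjusted p = 0.0205). Cdh1 remained nearly unread beside these changes in both cell types.

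By the counting used, reads of genes on opposite strands that overlap may not be told apart. This concerns Itgb4, Itga7, Itga8, Itga4 and Itgav among the genes described, of 8 members with such an exon overlap.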

How the data were processed

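The authors deposited raw read counts per Ensembl gene, in 1 series table and in sample files whose values differ from it in 0 places. STAR 2.7.10a, HTSeq 0.9.1, Trimmomatic 0.39 and FastQC 0.11.9 were used with GRCm38 (mm10), per the submitters' processing notes. The sources used here do not give the annotation release or whether counting was stranded. The NEBNext Ultra II kit and 100 ng of RNA per library were used, per the labels. Between 2.00 and 2.58% of reads were on no gene and 3.66 to 4.03% ambiguous; these 5 summary lines were left out. GENCODE M21 named 55227 of 55487 identifiers and left 260 without a name.

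Groups came from the sample titles. Counts were tested with edgeR 4.0.16 in R 4.3.3 (TMM, filterByExpr, quasi-likelihood F-test, Benjamini-Hochberg adjusted p under 0.05 over all genes tested), on 6 libraries for each medium response and on 12 for the interaction and the contrasts between cell types. Standard errors are the absolute log2 change over the square root of F. Printed levels are CPM scaled over the 12 libraries; levels per kb use the union of annotated exons. Intervals are 95% and cover counting error only. Detection rates came from simulated counts. At a 2-fold change, 98.0% of 50 altered genes were called in Hepa1 (13156 genes tested) and 95.9% of 49 in MEFs (14401). False calls made up 9.79% and 2.91%. The contrast of cell types in control medium found 87.8% of 49. The interaction was weaker, with 74% of 50 found at 2-fold and 78% of 50 at 4-fold. At 1.25-fold the rates were 71.4% in Hepa1, 64% in MEFs and 26.5% for the interaction. Simulated calls numbered only 194 in Hepa1 and 172 in MEFs, against 7656 and 7943 in the real data. Whether these rates hold for the real data was not tested. Alternatives were DESeq2 1.42.0, DESeq2 size factors, limma-voom (limma 3.58.1), no scaling, other filters, 12 libraries in 1 fit, a replicate block and each library left out; the basic transcript length was added after the data were seen.

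Members with a mean of at least 1 CPM in a group are described with values. Each library is given for called changes of at least 1 on the log2 scale and for the 5 highest members per kb of a cell type. Of each pathway list, up to 4 genes with the smallest adjusted p are named per cell type; genes named otherwise were chosen after their values were seen. 1 gene that this rule names is not reported here. The members and lists were chosen with earlier results of these data known.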

Additional observations from a re-analysis of the deposited data

Results flagged for a closer look

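For 13 genes the response to the medium differed between Hepa1 and MEFs by the interaction test (log2 change in Hepa1 minus that in MEFs, edgeR, adjusted p under 0.05). Higher in Hepa1 were Itga3 (0.28), Itgb1 (0.65), Itgb5 (0.94), Itga1 (1.24), Itga7 (1.63), Itgb3 (3.58), Itga8 (4.72) and Itga11 (5.86). Lower in Hepa1 were Itgav (-0.23), Cdh24 (-1.17), Cdh2 (-1.67), Itga6 (-1.98) and Itga2 (-2.34). The values of Itga11, Itga8 and Itgb3 rest on 63, 4 and 3 Hepa1 reads in ferroptotic medium, of which 57, 4 and 2 are in replicate 3. In control medium Itga11 had 4 Hepa1 reads and Itga8 and Itgb3 had 0, and none of these genes was tested within Hepa1.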

How the results depend on the processing

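With each library left out in turn, the members called higher and lower were 3 to 4 and 7 to 8 in Hepa1, 10 to 11 and 12 in MEFs, and 6 to 8 and 5 to 6 for the interaction. Between cell types they were 6 to 7 and 25 in control, and 4 and 24 to 25 in ferroptotic medium. The interaction called 8 lower with limma-voom in place of 5. Without scaling beyond totals, 7 members were higher in Hepa1 in ferroptotic medium in place of 4. That setting moved the median log2 difference between cell types over all genes from -0.08 to 0.49 in control and 0.46 in ferroptotic medium. It turned Itga5 to 0.14 (adjusted p = 0.000352) and Cdh2 to 0.060 (adjusted p = 0.141) in control, and Itga5 to 0.22 and Itga7 to 0.50 in ferroptotic medium. It also split all genes called into 4515 higher and 3169 lower in Hepa1 and 5211 and 2957 in MEFs, against 3865 and 3791, and 4009 and 3934. With a replicate block the interaction called 7 higher and 6 lower, with Itgb3 lost (adjusted p = 0.0552) and Cdh11 gained (adjusted p = 0.0461); the other comparisons kept their counts. Same-numbered libraries correlated at -0.0327 to 0.0632 in their deviations from the group mean, so no pairing was seen. Counting depth limits Itgb7, Cdh23, Cdh26 and the MEF-type genes in Hepa1. The causes of these shifts were not tested.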

Other observations

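Itgb2, the beta chain of leukocyte integrins, was under the count filter in MEFs, with 3, 1 and 0 reads in control and 8, 4 and 6 in ferroptotic medium. The ratio was 4.15 (95% counting interval 1.37 to 16.9), and it was chosen after its values were seen. Of the leukocyte genes, Lyz2 went from 129 to 344 reads (2.47 to 6.11 CPM) in the same groups and the sum of the 12 from 2.66 to 2.96 CPM to 5.54 to 7.67 CPM, with Ptprc and Tyrobp at 0. Their part in the Itgb2 reads was not tested. Ilk, which encodes integrin-linked kinase, had only 15 to 28 reads in each group of 3 libraries and was not tested. Of the 23 cadherin genes, 8 lie within 23.8 Mb of chromosome 8 (99024471 to 122867397, GRCm38), among them Cdh11, Cdh13, Cdh16, Cdh3 and Cdh1.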
